A study of Mus musculus with 6 samples.

Results

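The genes described here are 10 genes of protein folding and quality control in the endoplasmic reticulum: Hspa5, Hsp90b1, Calr, Pdia4, Pdia6, Dnajb9, Sdf2l1, Herpud1, Edem1 and Xbp1. They were taken by symbol from a table of 52636 genes, and all 10 were found and passed the filter on low counts. Most of them encode chaperones or folding enzymes, but Xbp1 encodes a transcription factor and Herpud1 and Edem1 encode proteins of degradation, so that the name chaperone does not cover every gene. The data are RNA sequencing counts from endothelial cells grown from mouse brain, all exposed to 4-OHT (4-hydroxytamoxifen) to induce gene deletion and sorted as living CD45-, CD31+ and VE-cadherin+ cells. The 2 groups were 3 control libraries, of the genotype Wild Type Control, and 3 knockout libraries, of the genotype Erg and Fli1 double knockout, a genotype that targets a pair of ETS-family transcription factors of endothelium. The strain and age of the mice and the recombinase that responds to 4-OHT are not stated in the labels. Nor do these say whether libraries share an animal or a culture, so p-values measure only the spread among the 6 libraries, which may be partly technical.

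Secreted and membrane proteins fold in the endoplasmic reticulum, and unfolded proteins there activate the sensors IRE1 (gene Ern1), PERK (Eif2ak3) and ATF6 (Atf6), a set of pathways called the unfolded protein response. IRE1 splices the Xbp1 messenger, and the XBP1 and ATF6 proteins then raise transcription of chaperones, disulfide isomerases and degradation factors through short elements in their promoters, while PERK slows translation and raises ATF4. Endothelial cells secrete basement membrane and von Willebrand factor and so depend on this folding machinery.

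The promoters of some of the genes hold known elements of this response. Since the genes are established targets of the response, and ERSE was defined from promoters of such chaperone genes, the matches describe the genes chosen and are no independent result. The 250 bases before the RefSeq transcription start (build GRCm38.p6) were found for all 10 genes and searched on both strands for the endoplasmic reticulum stress element ERSE (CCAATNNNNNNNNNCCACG), for ERSE-II (ATTGG, any base, then CCACG) and for TGACGTGG, a core of the unfolded protein response element. These motifs can overlap in their CCACG part, but no 2 matches of different motifs were found in 1 of the 10 windows. ERSE was present in 4 of the 10 genes (Hspa5, Hsp90b1, Pdia6 and Calr), against 0.113% of 32851 windows of the same length in the whole table. ERSE-II was present in 1, Herpud1, against 0.0304% of all windows, and TGACGTGG in 0 of the 10, against 0.563%, so that 5 of the 10 genes, among them Sdf2l1 and Dnajb9, held none of the motifs. A match describes letters and not a bound site, and a window without one says only that these letters are not in it.

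The windows of the genes with a match, and of Dnajb9 and Sdf2l1, on which the comparison below turns, are printed on the strand of each gene, with the fixed bases of ERSE or ERSE-II in capitals. They lie at chr2:34771840-34772089 (Hspa5, plus strand), chr10:86705445-86705694 (Hsp90b1, minus), chr8:84846932-84847181 (Calr, minus), chr12:17266339-17266588 (Pdia6, plus), chr8:94386179-94386428 (Herpud1, plus), chr12:44210069-44210318 (Dnajb9, minus) and chr16:17132384-17132633 (Sdf2l1, minus).
Hspa5: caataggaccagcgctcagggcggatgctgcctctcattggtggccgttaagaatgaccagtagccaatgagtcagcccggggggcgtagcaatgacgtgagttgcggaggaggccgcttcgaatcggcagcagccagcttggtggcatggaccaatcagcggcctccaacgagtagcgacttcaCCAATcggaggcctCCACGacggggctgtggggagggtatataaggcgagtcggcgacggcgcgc
Hsp90b1: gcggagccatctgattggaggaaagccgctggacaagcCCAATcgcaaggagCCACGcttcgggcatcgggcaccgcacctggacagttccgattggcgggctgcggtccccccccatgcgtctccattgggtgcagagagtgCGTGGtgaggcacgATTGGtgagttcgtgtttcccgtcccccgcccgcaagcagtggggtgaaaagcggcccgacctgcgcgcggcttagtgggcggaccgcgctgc
Calr: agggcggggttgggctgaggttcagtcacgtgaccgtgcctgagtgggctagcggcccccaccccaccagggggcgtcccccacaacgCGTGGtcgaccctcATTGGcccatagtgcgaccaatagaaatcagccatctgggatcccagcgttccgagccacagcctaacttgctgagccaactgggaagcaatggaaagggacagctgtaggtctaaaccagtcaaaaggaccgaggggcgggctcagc
Pdia6: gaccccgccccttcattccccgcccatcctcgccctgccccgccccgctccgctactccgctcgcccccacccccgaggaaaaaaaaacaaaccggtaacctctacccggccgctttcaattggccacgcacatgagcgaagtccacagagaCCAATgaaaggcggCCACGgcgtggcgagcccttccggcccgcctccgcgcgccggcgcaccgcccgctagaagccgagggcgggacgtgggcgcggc
Herpud1: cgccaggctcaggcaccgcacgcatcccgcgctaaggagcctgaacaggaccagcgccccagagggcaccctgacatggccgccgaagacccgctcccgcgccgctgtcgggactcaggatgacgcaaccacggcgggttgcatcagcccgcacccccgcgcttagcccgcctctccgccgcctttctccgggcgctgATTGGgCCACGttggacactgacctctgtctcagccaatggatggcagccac
Dnajb9: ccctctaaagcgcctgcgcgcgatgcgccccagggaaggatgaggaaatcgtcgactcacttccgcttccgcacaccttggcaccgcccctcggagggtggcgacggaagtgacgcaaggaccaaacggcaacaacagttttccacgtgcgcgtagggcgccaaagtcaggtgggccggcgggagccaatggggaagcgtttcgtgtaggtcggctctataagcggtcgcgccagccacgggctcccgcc
Sdf2l1: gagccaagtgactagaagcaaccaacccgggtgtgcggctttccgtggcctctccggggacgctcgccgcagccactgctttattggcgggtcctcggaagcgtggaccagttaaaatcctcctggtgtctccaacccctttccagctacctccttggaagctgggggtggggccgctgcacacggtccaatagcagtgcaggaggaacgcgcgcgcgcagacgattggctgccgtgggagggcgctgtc
The ERSE of Hspa5 spanned bases 65 to 47 before the start. Hsp90b1 held 2 matches, at 212 to 194 bases before the start and, in the opposite orientation, at 107 to 89. The element of Calr lay in the opposite orientation at 162 to 144, that of Pdia6 at 98 to 80, and the ERSE-II of Herpud1 at 52 to 42. The end of the Herpud1 window also matches ERSE up to its final base, which falls beyond the window and was not searched.

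The libraries held 17274639 to 19410458 counts. Levels are given in CPM (reads per gene relative to the TMM-scaled size of the library), and groups as mean ± SD over n = 3 libraries. Erg, one of the targeted genes, fell from 496.5 ± 238 to 89.3 ± 19.6 CPM (edgeR adjusted p = 0.0137), a call lost without control 3 or without any 1 knockout library (edgeR adjusted p of 0.0508 to 0.0691). Fli1, the other, averaged 79.7 ± 14.3 CPM in controls against 64.1 ± 6.14 CPM in knockouts (edgeR adjusted p = 0.181). A whole-gene count can include transcripts that lack the deleted part, and whether it did here was not tested. Without control 2, Fli1 fell by 0.48 on the log2 scale (edgeR adjusted p = 0.00346). Control 2 stood apart from controls 1 and 3, with a chi-square over its degrees of freedom of 190 and 173 in comparison with them, while the same measure was 5.80 between controls 1 and 3 and 9.17 to 10.6 among the knockouts. The 12 endothelial markers summed to 7050 CPM in control 2, 16100 and 16140 CPM in the other controls and 3571 to 4353 CPM in the knockouts, so the labelled cell type was present in every library. Sums of 12 fibroblast markers were 14620 CPM in control 2, 475 and 1274 CPM in controls 1 and 3, and 1670 to 2902 CPM in knockouts, and 12 pericyte and smooth muscle markers summed to 5440 CPM in control 2 against 1334 to 2021 CPM in the other 5 libraries. Col1a1, the fibroblast marker of highest CPM, had 5489 CPM in control 2, 214 and 628 CPM in the other controls and 104 to 235 CPM in knockouts, whereas Ptprc, which encodes the sorted-out CD45, was at or below 0.211 CPM in every library. Control 2 and knockouts 2 and 3 came from female cells by Xist and Y-linked transcripts and the others from male cells, so that among the controls sex and control 2 cannot be told apart. Results for the 10 genes are therefore given with and without control 2, and for other named genes where leaving it out changed the call or the direction.

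Of the 10 genes, 3 rose in the knockouts and 0 fell: Sdf2l1, Dnajb9 and Herpud1 (edgeR quasi-likelihood test, adjusted p under 0.05 over 13901 genes). At an unadjusted p under 0.05 the counts were again 3 higher and 0 lower, and DESeq2 and limma voom also called 3 higher and 0 lower. Over all tested genes 24.7% were called in either direction, so 3 of 10 is near that share. The share called higher was 13.1%, beside 3 of these 10, and the difference was not tested. Without control 2, 7 of the 10 rose and 0 fell, the 4 further genes being Hspa5, Hsp90b1, Calr and Pdia4. At an unadjusted p under 0.05, 8 were then higher and 0 lower. The general share without that library was 50.3% called, with 25.5% higher and 24.8% lower. Groups then did not overlap for 8 of the 10 genes, all but Pdia6 and Edem1, and for 69.9% of all tested genes (37.6% with knockouts higher). The median log2 fold change of the 10 genes was 0.28 with all libraries and 0.41 without control 2, beside 0.0030 and -0.0037 over all tested genes. In bulk RNA, fewer cells of a type and less RNA per cell cannot be told apart.

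**Figure D1:**
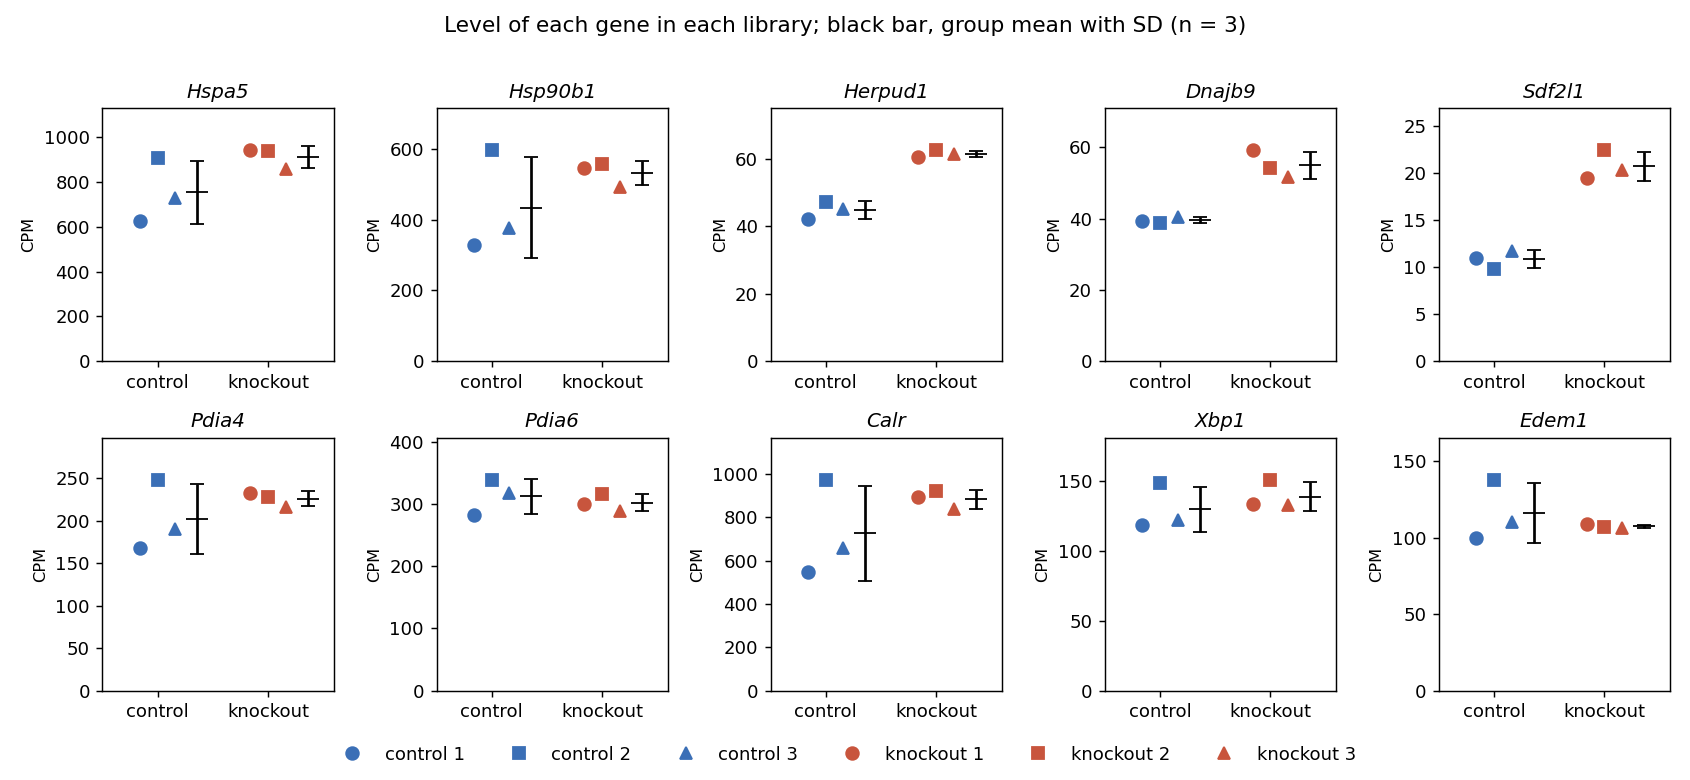
CPM of the 10 genes (vertical axes, each from 0) in 3 control and 3 knockout libraries, with symbols for replicate numbers and black bars for the group mean with SD. For Sdf2l1, Dnajb9 and Herpud1 all knockouts lie above all controls, whereas control 2 lies among or above the knockouts for Hspa5, Hsp90b1, Calr and Pdia4.

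Sdf2l1, which encodes a partner of chaperone complexes in the lumen, changed most of the 10. Sdf2l1 (ENSMUSG00000022769; GRCm38 chromosome 16, 17130138 to 17132383, minus strand) had 10.96, 9.80 and 11.7 CPM in controls 1 to 3 and 19.4, 22.4 and 20.3 CPM in knockouts 1 to 3. The groups did not overlap, and control 2 was the lowest library. The means were 10.8 ± 0.970 and 20.7 ± 1.52 CPM, which is a log2 fold change of 0.93 ± 0.11 (SE; 1.91-fold, edgeR adjusted p = 0.00430). It had the lowest counts of the 10 genes, with 180 to 214 counts per control library and 364 to 401 per knockout library.

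Dnajb9 encodes ERdj4, a J-domain cochaperone of BiP that is a known target of XBP1. Dnajb9 (ENSMUSG00000014905; chromosome 12, 44205559 to 44210326, minus strand) had 39.2, 38.8 and 40.4 CPM in controls and 59.1, 54.3 and 51.6 CPM in knockouts. Every knockout lay above every control, and the controls lay close together. The log2 fold change came to 0.48 ± 0.07 (SE), or 1.39-fold, with an edgeR adjusted p of 0.00884. Of its 50-base transcript sequences, 5.50% also occur in Gm6568, so that part of its counts is uncertain.

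Herpud1, which encodes a membrane protein that organises the degradation complex around the ubiquitin ligase HRD1, rose by a similar factor. Herpud1 (ENSMUSG00000031770; chromosome 8, 94386438 to 94395377, plus strand) had 42.2, 47.3 and 45.1 CPM in controls and 60.7, 62.5 and 61.5 CPM in knockouts. Here control 2 was the highest control, but still below each knockout. This was a 1.37-fold difference, or 0.46 ± 0.07 as log2 fold change (SE), with an edgeR adjusted p of 0.00735.

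Groups without overlap occurred for 46.3% of all tested genes (25.0% with knockouts higher), and for these 3 genes an exact two-sided permutation test gave p = 0.1 each, the smallest that 3 against 3 libraries allow. All 3 stayed called in each of 15 alternative analyses, with edgeR, DESeq2 or limma voom adjusted p of at most 0.0303 for Sdf2l1, 0.0411 for Herpud1 and 0.0451 for Dnajb9. Because the groups did not overlap, the same order held by necessity within the male libraries (knockout 1, controls 1 and 3) and within the female ones (knockouts 2 and 3, control 2). The split by sex therefore adds nothing to the lack of overlap. Without control 2 the log2 fold change and SE were 0.83 ± 0.10 for Sdf2l1, 0.43 ± 0.07 for Dnajb9 and 0.46 ± 0.05 for Herpud1 (edgeR adjusted p = 0.000606, 0.00248 and 0.000447). With sex as a term the edgeR adjusted p was 0.0130 for Sdf2l1, 0.0138 for Dnajb9 and 0.0172 for Herpud1.

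The abundant chaperones Hspa5, Hsp90b1 and Calr were called only when control 2 was left out. Hspa5 encodes BiP, the HSP70 chaperone of the lumen that also holds the sensors inactive. Hspa5 (ENSMUSG00000026864; chromosome 2, 34771970 to 34777547, plus strand) had 628, 906 and 730.0 CPM in controls and 942, 939 and 857.5 CPM in knockouts. Control 2 lay between knockouts 2 and 3, while controls 1 and 3 lay below all knockouts. With all libraries the log2 fold change equalled 0.27 ± 0.15 (SE, edgeR adjusted p = 0.232), and without control 2 it was 0.39 ± 0.08 (SE, edgeR adjusted p = 0.00582).

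Hsp90b1 encodes GRP94, the HSP90 chaperone of the lumen, which folds integrins and Toll-like receptors. Hsp90b1 (ENSMUSG00000020048; chromosome 10, 86690209 to 86705509, minus strand) had 329, 596.5 and 377 CPM in controls and 546, 558 and 494 CPM in knockouts. Control 2 was the highest of the 6 libraries. The log2 fold change equalled 0.29 ± 0.23 (SE, edgeR adjusted p = 0.398) and, without control 2, 0.56 ± 0.08 (SE, edgeR adjusted p = 0.00118). Its counts are less certain than the others, because 10.3% of its exonic bases lie in exons of 1810014B01Rik on the opposite strand and 5.38% in exons of Gm15344 and Gm25745 on its own strand, and the strand setting of the counting is unknown here.

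Calr encodes calreticulin, a lectin that binds glycoproteins during folding. Calr (ENSMUSG00000003814; chromosome 8, 84841850 to 84846934, minus strand) had 548, 973 and 658 CPM in controls and 893.5, 923 and 837 CPM in knockouts. Control 2 was again the highest library and control 1 the lowest. With all libraries the log2 fold change equalled 0.28 ± 0.22 (SE, edgeR adjusted p = 0.385), and it became 0.52 ± 0.09 (SE, edgeR adjusted p = 0.00237) without control 2.

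The isomerase genes Pdia4 and Pdia6 encode enzymes that form and rearrange disulfide bonds. Pdia4 (ENSMUSG00000025823; chromosome 6, 47796141 to 47813430, minus strand), encoding ERp72, had 167, 248 and 190.3 CPM in controls and 232.5, 228 and 215.5 CPM in knockouts. Control 2 exceeded every knockout, and controls 1 and 3 were below every knockout. Its log2 fold change equalled 0.16 ± 0.15 (SE, edgeR adjusted p = 0.480) and 0.30 ± 0.07 (SE, edgeR adjusted p = 0.00955) without control 2.

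Pdia6 (ENSMUSG00000020571; chromosome 12, 17266545 to 17284770, plus strand), encoding an isomerase that also binds IRE1, had 283, 338.5 and 317 CPM in controls and 300.4, 317 and 289 CPM in knockouts. The groups overlapped with or without control 2. The log2 fold change equalled -0.05 ± 0.09 (SE, edgeR adjusted p = 0.715) and -0.02 ± 0.07 (SE, edgeR adjusted p = 0.792) without control 2, and it was 0.04 when only library size was used for scaling. The difference between Pdia4 and Pdia6 was not tested.

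Edem1 and Xbp1, like Pdia6, did not pass the test in any of the analyses run. Edem1 (ENSMUSG00000030104; chromosome 6, 108828641 to 108859356, plus strand) encodes a mannosidase-like protein that passes misfolded glycoproteins to degradation. It had 100, 138 and 111 CPM in controls and 109, 107 and 106 CPM in knockouts. Control 2 was the highest library and the groups overlapped with or without it, and the log2 fold change equalled -0.11 ± 0.12 (SE, edgeR adjusted p = 0.543) with it and -0.0046 ± 0.05 (SE, edgeR adjusted p = 0.952) without it.

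Xbp1 (ENSMUSG00000020484; chromosome 11, 5520659 to 5525893, plus strand) had 118.5, 148.5 and 122 CPM in controls and 133, 151 and 133 CPM in knockouts. Controls 1 and 3 lay below the knockouts and control 2 between them. Its log2 fold change equalled 0.10 ± 0.11 (SE, edgeR adjusted p = 0.548), and 0.17 ± 0.07 (SE, edgeR adjusted p = 0.0661) without control 2. Gene counts do not separate the spliced from the unspliced Xbp1 messenger, so IRE1 activity is not measured by this value.

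**Figure D2:**
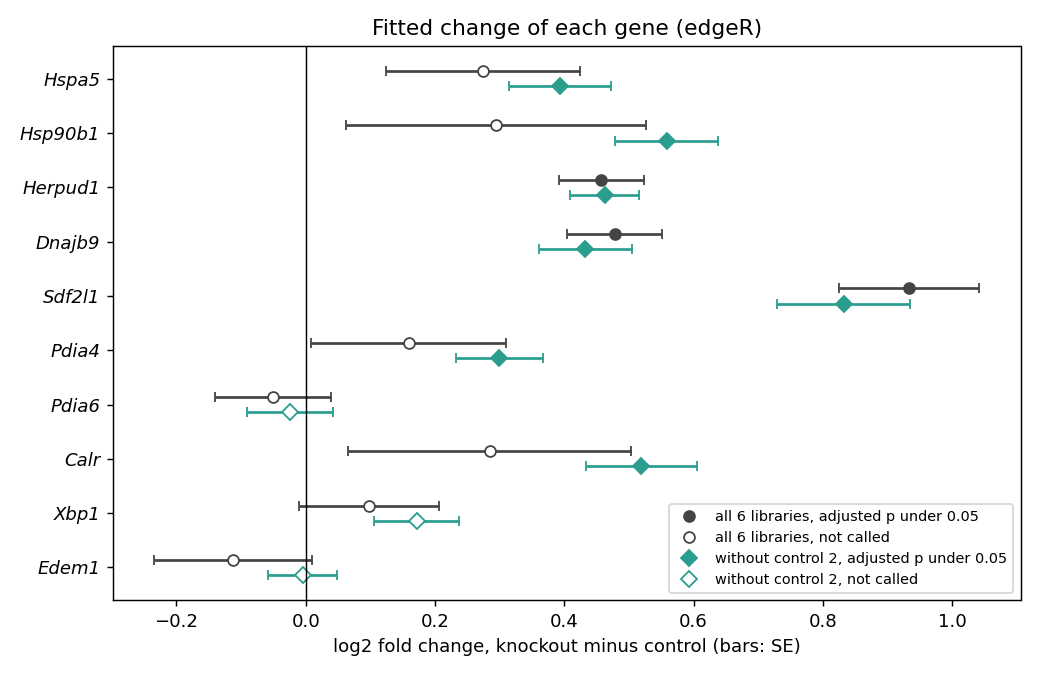
Log2 fold change of the 10 genes, knockout minus control, with SE, from edgeR with all 6 libraries (circles) and without control 2 (diamonds); filled symbols have an adjusted p under 0.05. Leaving out control 2 moved Hsp90b1 from 0.29 to 0.56 and Calr from 0.28 to 0.52 and left Herpud1 at 0.46, while Sdf2l1 moved from 0.93 to 0.83.

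The position of control 2 differed from gene to gene. Relative to the mean of controls 1 and 3, its level on the log2 scale was 0.76 higher for Hsp90b1, 0.69 for Calr, 0.47 for Pdia4, 0.42 for Hspa5, 0.39 for Edem1, 0.30 for Xbp1, 0.18 for Pdia6 and 0.12 for Herpud1. For Dnajb9 and Sdf2l1 the difference was -0.04 and -0.21. The 10 genes had a median of 0.35 with 8 higher in control 2, whereas 10538 genes averaging 5 CPM or more had a median of -0.02 with 4954 higher. The knockouts exceeded the mean of controls 1 and 3 by 0.59 ± 0.09 (log2, SD, n = 3) for Hsp90b1 and 0.55 ± 0.07 for Calr, both less than control 2 did. For Sdf2l1 the knockouts exceeded it by 0.86 ± 0.10 and for Dnajb9 by 0.46 ± 0.10. Fibroblast and mural transcripts were highest in the same library, as given above, and their part in these levels was not tested. Over all genes tested in both fits, 26.0% were called only without control 2, beside 4 of these 10.

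**Figure D3:**
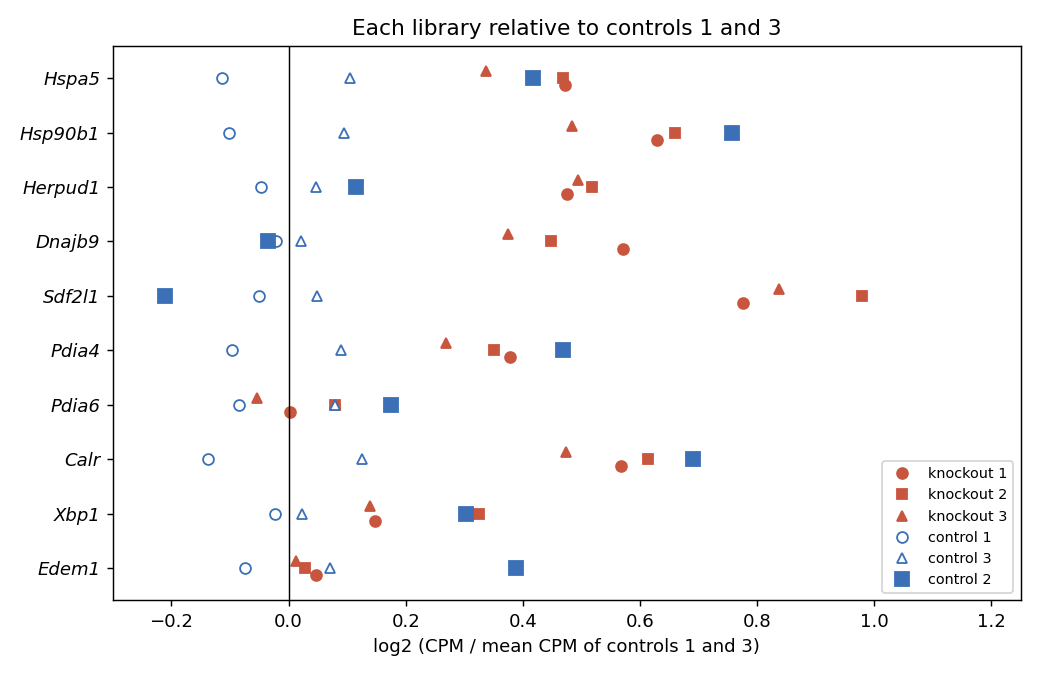
Log2 ratio of the CPM in each library to the mean CPM of controls 1 and 3, for the 10 genes. Control 2 (large squares) lies to the right of the knockouts for Hsp90b1, Calr, Pdia4, Pdia6 and Edem1 and to the left of them for Sdf2l1, Dnajb9 and Herpud1.

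Levels of different genes were compared only per kilobase of exon, as CPM per kilobase. In controls the order of mean levels was Calr (252 ± 76.5), Hspa5 (178 ± 33.3), Hsp90b1 (108 ± 35.4), Pdia4 (84.1 ± 17.2), Pdia6 (83.5 ± 7.51), Xbp1 (39.96 ± 5.03), Herpud1 (19.2 ± 1.09), Edem1 (18.0 ± 3.02), Dnajb9 (15.5 ± 0.321) and Sdf2l1 (9.77 ± 0.875). In controls Pdia4 and Pdia6 did not differ beyond their spread, nor did Herpud1 and Edem1 or Edem1 and Dnajb9. The spreads of Calr and Hspa5 also overlapped, as did that of Hsp90b1 with those of Pdia4 and Pdia6. Compared within libraries, Calr was above Hspa5 in each of the 6. In knockouts the order was kept down to Herpud1 (26.4 ± 0.387), but Dnajb9 (21.6 ± 1.49) and Sdf2l1 (18.7 ± 1.37) then stood above Edem1 (16.7 ± 0.200). The genes that were called with all libraries were thus among the 4 least abundant per length in controls.

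The rest of the pathway was described by 7 lists with 116 tested genes. Together 17 rose and 10 fell, and without control 2, 49 rose and 23 fell, to be read beside 24.7% and 50.3% of all tested genes called. Among the named genes of these lists, Creb3l2, Fkbp2, Ero1l, Ngly1, Stt3b, Trib3, Asns and Sparc stayed called in each of the 15 alternatives. So did Dnajc3, Ppp1r15a, Ddit4 and Chac1, which are named below after their values were seen. Genes that sense and transmit folding stress changed in both directions. Of 11 sensors and regulators tested, 3 rose and 1 fell, with a median log2 fold change of 0.09. Among the sensors, Ern1 had 102 ± 24.4 and 105 ± 8.29 CPM (edgeR adjusted p = 0.878), Atf6 had 91.1 ± 4.68 and 97.6 ± 3.21 CPM (edgeR adjusted p = 0.275), and Eif2ak3 had 56.6 ± 10.7 and 39.3 ± 1.59 CPM. The log2 fold change of Ern1 turned from 0.05 to -0.17 without control 2 (edgeR adjusted p = 0.0818). Eif2ak3 missed the threshold (edgeR adjusted p = 0.0517), but without control 2 it fell by 0.71 on the log2 scale (edgeR adjusted p = 9.2e-05). The gene that fell was Creb3l2, which encodes a membrane-bound transcription factor of secretory cells, from 483 ± 121 to 183 ± 17.1 CPM, with a log2 fold change of -1.40 ± 0.21 and an edgeR adjusted p of 0.00806. The genes that rose were Atf6b, Traf2 and Mbtps1, which encodes a protease that cleaves ATF6 (201 ± 16.8 to 247 ± 10.5 CPM, edgeR adjusted p = 0.0478). Of these, Atf6b and Traf2 are named after their values were seen. Mbtps1 lost its call in each of 5 analyses that left out a library other than control 2 (edgeR adjusted p of 0.107 to 0.152), and in each of them 0 genes of this list rose. Without control 2, 4 rose and 2 fell.

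Of 20 further chaperones and cochaperones of the lumen, 3 rose and 0 fell with all libraries (edgeR; 5 higher and 0 lower by unadjusted p, 3 and 0 with DESeq2, and 5 and 0 with library size as the only scaling), with a median of 0.15. Fkbp2, a prolyl isomerase gene, rose from 11.6 ± 1.74 to 21.2 ± 1.78 CPM, with a log2 fold change of 0.87 ± 0.14 and an edgeR adjusted p of 0.00958. The others, Dnajc3 and Hyou1, named after their values were seen, encode an inhibitor of PERK that is also a BiP cochaperone and a nucleotide exchange factor of BiP. Dnajc3 rose from 157 ± 11.1 to 226 ± 13.5 CPM and Hyou1 from 211 ± 27.8 to 288 ± 5.51 CPM, the latter losing its call without any 1 library other than control 2 (edgeR adjusted p up to 0.105). Serpinh1, the collagen chaperone, had 976 ± 237.5 and 893.5 ± 19.7 CPM (edgeR adjusted p = 0.640), and its log2 fold change turned from -0.13 to 0.06 without control 2 (edgeR adjusted p = 0.443). Canx, encoding calnexin, had 749 ± 37.1 and 836 ± 22.7 CPM (edgeR adjusted p = 0.194, and 0.0370 without control 2). Without control 2, 10 rose and 1 fell.

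Disulfide enzymes beyond Pdia4 and Pdia6 were mixed, with 3 higher and 1 lower of 16 tested and a median of 0.08. Ero1l, encoding the oxidase that recharges the isomerases, rose from 85.7 ± 15.5 to 161 ± 9.27 CPM, with a log2 fold change of 0.91 ± 0.14 and an edgeR adjusted p of 0.00836. P4hb and Pdia3, isomerase genes with the highest CPM of the list, had 858 ± 161 and 919 ± 49.2 CPM (edgeR adjusted p = 0.667) and 791 ± 148 and 954 ± 49.6 CPM (edgeR adjusted p = 0.236). The gene that fell was Erp29, a redox-inactive relative named after its values were seen, and it lost its call without control 1 or any 1 knockout library (edgeR adjusted p of 0.0720 to 0.143). Without control 2, 6 rose, among them P4hb and Pdia3, and 4 fell.

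In the degradation and glycoprotein control list, 2 of 23 tested genes rose and 0 fell (edgeR; 8 higher and 3 lower by unadjusted p, and 2 and 2 with DESeq2), with a median of 0.03. With library size as the only scaling, 8 rose and 0 fell. Ngly1, encoding the glycanase that strips glycans from retrotranslocated proteins, rose from 32.1 ± 0.647 to 50.3 ± 1.63 CPM, with a log2 fold change of 0.65 ± 0.06 and an edgeR adjusted p of 0.00266, and Uggt1, encoding the glucosyltransferase that recognises misfolded glycoproteins and named after its values were seen, from 199 ± 9.43 to 250.3 ± 2.97 CPM. Uggt1 lost its call without control 1 or any 1 knockout library (edgeR adjusted p of 0.0578 to 0.0695). Vcp, encoding the ATPase that extracts proteins from the membrane, had 403 ± 45.2 and 318 ± 7.30 CPM (edgeR adjusted p = 0.0537, and 0.000432 without control 2). Without control 2, 7 rose and 5 fell.

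Of 22 tested genes of protein entry and N-glycosylation, 4 rose and 0 fell (edgeR; 9 higher and 1 lower by unadjusted p, and 7 and 0 with DESeq2), with a median of 0.18, and without control 2, 14 rose and 1 fell. Without any other 1 library the count was 2 higher and 0 lower, and with library size as the only scaling it was 9 and 0. Stt3b, encoding a catalytic subunit of oligosaccharyltransferase that can act after translation, had 142, 194.5 and 155 CPM in controls and 394, 412 and 375 CPM in knockouts. Its log2 fold change equalled 1.26 ± 0.13 (SE, edgeR adjusted p = 0.00338), whereas Stt3a, its cotranslational counterpart, named after its values were seen, had 258 ± 28.2 and 259 ± 12.85 CPM (edgeR adjusted p = 0.976). Among the abundant genes, Rpn2 had 364 ± 32.0 and 443 ± 19.6 CPM (edgeR adjusted p = 0.0704, and 0.00297 without control 2) and Ssr3 506.5 ± 54.8 and 468 ± 24.1 CPM (edgeR adjusted p = 0.457). In control 2 this list was above the mean of controls 1 and 3 for 21 of 22 genes, and the median log2 ratio was 0.27.

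In the PERK-ATF4 branch, 2 of 12 tested genes rose (Ppp1r15a and Ddit4) and 4 fell (Trib3, Asns, Chac1 and Atf3), of which Ppp1r15a, Ddit4, Chac1 and Atf3 are named after their values were seen and Atf3 lost its call without knockout 2 (edgeR adjusted p = 0.0547). Without control 2, 6 rose, the others being Ddit3, Sesn2, Nupr1 and Cebpb, and 4 fell. Atf4 itself had 269.9 ± 6.49 and 254 ± 11.5 CPM (edgeR adjusted p = 0.372), while Trib3 fell from 43.6 ± 13.3 to 12.4 ± 1.44 CPM (edgeR adjusted p = 0.00722) and Asns from 116 ± 8.75 to 72.7 ± 4.21 CPM (edgeR adjusted p = 0.00426). Of 12 genes of secreted matrix proteins, which fold in the endoplasmic reticulum, 4 fell and 0 rose (edgeR, with 6 lower and 0 higher by unadjusted p, and 7 and 0 with DESeq2). Their sum, in which 3 of the fibroblast markers also count, was 25530 to 29070 CPM in knockouts against 45020 to 49270 CPM in controls. The sum of control 2 was made up differently, with 8 of the 12 genes above the mean of controls 1 and 3 and a median log2 ratio of 2.28. Sparc, a matrix protein gene, fell from 5959 ± 259 to 2799 ± 183 CPM, with a log2 fold change of -1.09 ± 0.12 and an edgeR adjusted p of 0.00374, and Col4a1, a basement membrane collagen gene, from 7524 ± 615 to 4844 ± 174 CPM (edgeR adjusted p = 0.0222). Without any 1 library other than control 2, 2 or 3 of these genes fell, and without control 2, 6 fell and 2 rose. Col4a1 lost its call without any 1 library other than control 2 (edgeR adjusted p up to 0.115). Fn1, encoding fibronectin, had 20750 ± 6101 and 13740 ± 1698 CPM (edgeR adjusted p = 0.180), and without control 2 it fell by 0.85 on the log2 scale (edgeR adjusted p = 0.000815).

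**Figure D4:**
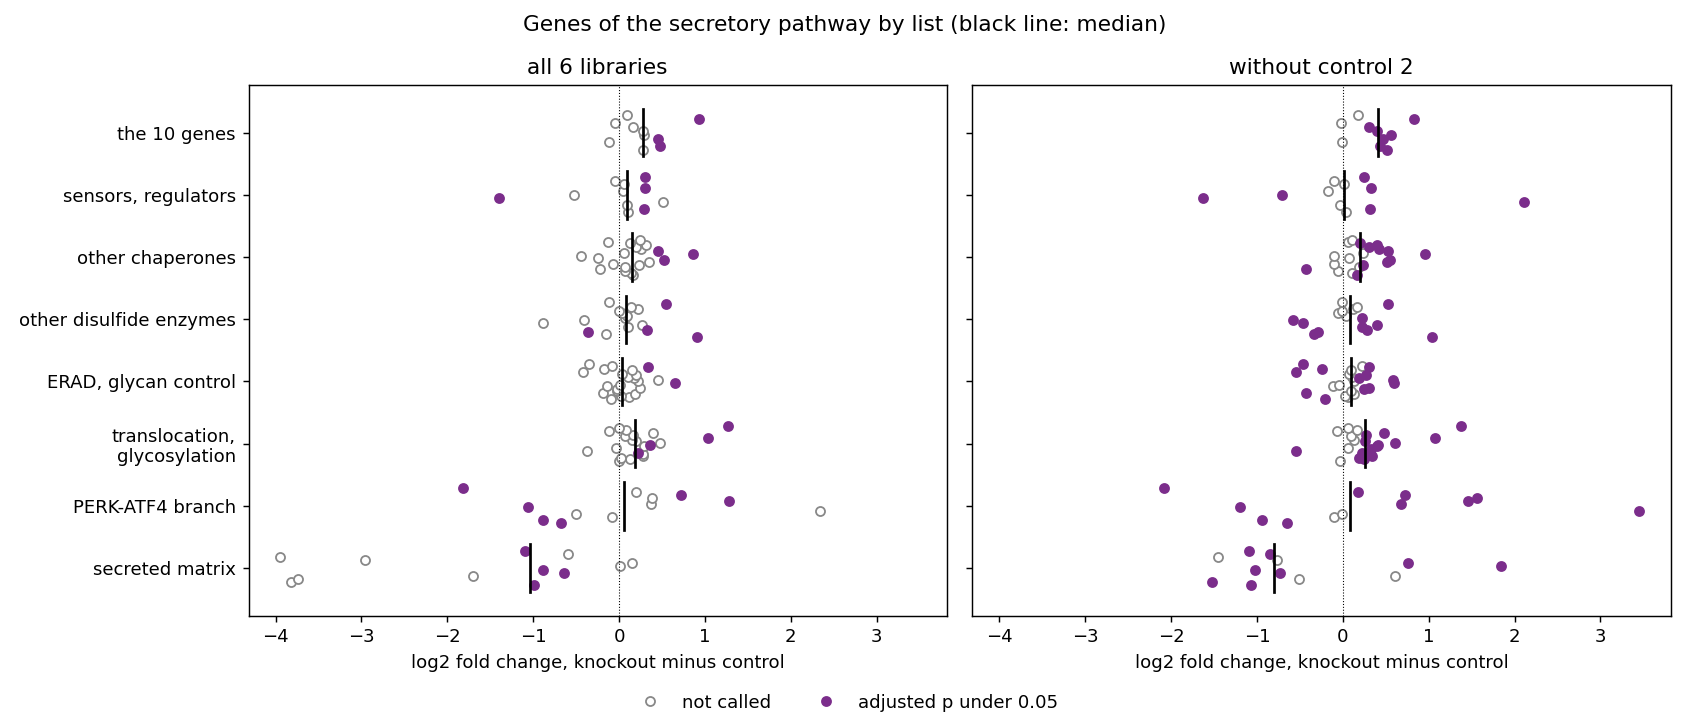
Log2 fold change, knockout minus control, of each tested gene of the 10 and of 7 lists, with all 6 libraries (left) and without control 2 (right); filled points have an edgeR adjusted p under 0.05 and black lines are medians. The median of the 10 genes is 0.28 on the left and 0.41 on the right, and that of secreted matrix is -1.04 and -0.81.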

How the data were processed

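RNA of sorted cells was sequenced as 6 libraries with one of 2 kits, per the labels' protocols, which do not say which kit made which library. The authors deposited raw counts per Ensembl gene, used here as deposited; FastQC 0.11.5, STAR 2.7.6a and the build GRCm38 are named in the submitters' processing notes. For the counter, its use of strand and its annotation, a name is not given in the sources used here. The table had 0 rows naming no gene and 0 columns of other samples. Symbols, coordinates and exon lengths came from GENCODE M21 of the same build, which matched 52489 of 52636 identifiers, and promoters from RefSeq (GRCm38.p6). Per-length levels are CPM divided by the union of exons.

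Groups and replicate numbers came from the sample titles. Counts were fitted in R 4.3.3 with edgeR 4.0.16: filterByExpr by group (13901 genes kept), TMM scaling, two-sided quasi-likelihood F tests without covariates, Benjamini-Hochberg adjustment over all tested genes, and a call at an adjusted p under 0.05. The SE is the log2 fold change divided by the square root of F. Alternatives were 3 other scalings, 2 other filters, DESeq2 1.42.0, limma voom (limma 3.58.1), terms for replicate number or sex, and each library left out. The test was tested on simulated counts. No 2 libraries agreed within sampling noise. Counting intervals are not given, since no molecular identifiers are recorded.

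The 10 genes, the 7 pathway lists, the 6 marker lists and the tests were chosen with earlier results of these data known. Named beyond the 10 were Erg, Fli1, the 3 sensors, from each pathway list the 2 genes of highest mean CPM and the called gene of largest absolute log2 fold change that averaged 5 CPM or more, and from each marker list the gene of highest mean CPM: Cdh5, Col1a1, Acta2, Cd68, Tubb3 and Krt18. One gene that this rule names is not reported here. Promoters were matched by symbol.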

Additional observations from a re-analysis of the deposited data

How the results depend on the processing

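Herpud1, Dnajb9 and Sdf2l1 kept their direction and their call in all 15 alternatives. The number of the 10 genes called higher was 3 in every alternative except without control 2, where it was 7, so that over the analyses leaving out 1 library it ranged from 3 to 7; the number called lower was 0 throughout. The cause was not tested. Pathway list genes called higher numbered 17, but 33 with library size only, 10 with the replicate block and 9 to 49 with 1 library left out; those called lower numbered 10, but 18 with DESeq2 and 6 to 23 with 1 library left out. All genes called numbered 3437, but 1844 with the replicate block and 1351 to 7128 with 1 library left out. Direction reversed for 6 named genes, none of them past the threshold in either analysis: Pdia6 (0.0396) and Atf4 (0.0045) with library size only, Ern1 (-0.17), Serpinh1 (0.0555) and Acta2 (0.8329) without control 2, and P4hb (-0.0169) without control 1. With 1 library left out, Ern1 ranged from -0.17 to 0.1441, Serpinh1 from -0.2499 to 0.0555, Acta2 from -1.1892 to 0.8329 and P4hb from -0.0169 to 0.223. With library size only, 66.4% of calls were higher, against 52.8% with TMM.

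Deviations from group means correlated at -0.17, 0.16 and 0.25 between the control and the knockout of replicate numbers 1, 2 and 3. Control 1 correlated best with knockout 3 (0.32). As control 2 stood apart, the deviations of controls 1 and 3 largely mirror it. These values therefore cannot decide whether the replicate numbers pair the libraries. With the replicate block, the number of the 10 genes called was 3. Sdf2l1 rests on the fewest counts of the 10, 180 in its lowest library.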

Other observations

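Markers of further cell types were low or mixed. Sums over 10 leukocyte markers were 3.24 to 7.46 CPM, with Cd68 highest at 2.15 ± 0.706 and 1.604 ± 0.279 CPM in the control and knockout group (SD, n = 3). Sums over 10 markers of glia and neurons were 26.1 to 91.2 CPM, mostly Tubb3 (32.9 ± 27.3 and 63.7 ± 12.2 CPM, edgeR adjusted p = 0.280), which rose by 1.84 on the log2 scale without control 2 (edgeR adjusted p = 0.000468). Of the 5 of these markers that were tested, 1 rose and 0 fell with all libraries, and 3 rose and 1 fell without control 2. Sums over 8 epithelial markers were 6.32 to 15.1 CPM, with Krt18 at 2.26 ± 1.23 and 7.78 ± 1.495 CPM (edgeR adjusted p = 0.0440), a call kept in 9 of 15 alternatives (up to 0.137). Cdh5, the endothelial marker of highest level, had 3985 ± 1460 and 1270 ± 153 CPM (edgeR adjusted p = 0.0168), a call kept in 10 of 15 alternatives (up to 0.0823). Acta2, a smooth muscle actin gene, had 379, 3049 and 462 CPM in controls and 652, 1131 and 522 CPM in knockouts. Its log2 fold change was -0.76 with all libraries (edgeR adjusted p = 0.566) and 0.83 without control 2 (edgeR adjusted p = 0.0592). That of Col1a1 was -3.82 (edgeR adjusted p = 0.0830) and -1.52 without control 2 (edgeR adjusted p = 0.0406). Col1a1 does not stand for its list. Of 11 fibroblast markers tested, 1 rose and 0 fell with all libraries. Without control 2, 4 rose (Dcn, Lum, Pdgfra and Fbln1) and 1 fell (Col1a1).

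Among the 117 genes of the 7 pathway lists, 92 had a promoter window, and ERSE was present in 5 of them (5.43%), namely Canx, Dnajc3, Creld2, Derl3 and Syvn1, against 0.113% of all windows. TGACGTGG was present in 4 (4.35%), Vcp, Txndc5, Txndc11 and Ube2j1, against 0.563%. Dnajc3 was called higher with all libraries, Canx only without control 2, and Derl3 was too low to be tested. Vcp was called lower, only without control 2. Creld2, Syvn1, Txndc5, Txndc11 and Ube2j1 were called neither with all libraries nor without control 2. These genes were listed by motif and not by their change.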
